A study of Caenorhabditis elegans with 16 samples.

Results

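Glutathione S-transferase genes were taken as all protein-coding genes whose symbol starts with *gst-*. By this rule 44 of the 23758 genes in the deposited count tables were members, out of 19520 protein-coding genes. The symbols come from the gene identifiers, since the name column of the tables is empty, and all 44 were listed in each of the 3 tables. The rule reads symbols only.

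Glutathione S-transferases join the tripeptide glutathione to reactive or fat-soluble compounds, so that these can be exported from the cell or broken down. They act in the second phase of detoxification, after cytochrome P450 enzymes have oxidized a compound and beside the UDP-glucuronosyltransferases, which attach a sugar instead. In *C. elegans* the family has expanded into many genes that sit side by side on the chromosome, and several members are induced by the transcription factor SKN-1, the worm relative of mammalian Nrf2, during oxidative stress. *gst-4* is the best known of these and its promoter is widely used as a reporter of SKN-1 activity, while the proteins of *gst-5* and *gst-10* conjugate 4-hydroxynonenal, an aldehyde formed when lipids are oxidized. *gst-1* belongs to the pi class, *gst-42* and *gst-43* to the zeta class, whose human member breaks down tyrosine, and *gst-44* to the omega class.

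RNA-seq was carried out on whole worms of 4 genotypes on day 1 of adulthood, grown at 20 °C on OP50 bacteria, with 4 biological replicates of each, per the study's methods. Worms named *hsf-1* OE hold *hsf-1* under the *sur-5* promoter, active in most somatic tissues, as a genome-integrated transgene marked by red fluorescence of the pharynx (*myo-2* promoter). The *ubql-1(tm1574)* strain carries a deletion in *ubql-1*, the worm ubiquilin, while the strain with both alleles, *hsf-1* OE; *ubql-1(tm1574)*, came from a cross. The reference strain was the wildtype N2, with neither allele, and no treatment was given. The comparisons ask whether *hsf-1* OE changes gene expression and whether that change needs *ubql-1*. In whole worms, fewer cells of a type and less RNA per cell cannot be told apart.

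Total counts lay between 18202151 and 30524762 per library, and no pair of replicates agreed within sampling noise. *ubql-1* counts were lower in both strains that carry the deletion, with a log2 fold change of -1.18 for *ubql-1(tm1574)* against wildtype and of -1.49 when both alleles were set against *hsf-1* OE alone. *hsf-1* counts, however, were not higher in *hsf-1* OE than in wildtype worms (log2 fold change -0.13, SE 0.13, adjusted p = 0.386), whereas they were in the *ubql-1* mutant background (0.36, adjusted p = 0.00577). Directions given for *hsf-1* OE are therefore those of the libraries labelled *hsf-1* OE. Values per library are normalized counts, scaled by edgeR's TMM method across all 16 libraries and listed from replicate 1 to replicate 4. Fold changes come from edgeR's quasi-likelihood fit of the 8 libraries compared, which are scaled among themselves, so a fold change can differ from the ratio of the normalized counts. A gene was called when its p, adjusted by the Benjamini-Hochberg method over all genes tested, was under 0.05 and its absolute log2 fold change over 1. Near this threshold the scaling can decide a call. Between *hsf-1* OE and wildtype, *gst-36* stood at 1.05 in the fit reported and at 0.91 in one fit of all 16 libraries. The values for *gst-6* were 1.01 and 0.86.

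The members differed widely in level. Per kilobase of gene model, which makes genes of different length comparable, the mean over all 16 libraries was 7102 normalized counts for *gst-1*, above 98.1% of protein-coding genes. The next were *gst-7* at 3184, *gst-27* at 2106, *gst-36* at 1712, *gst-26* at 1514 and *gst-10* at 1512 normalized counts per kb. These 6 genes held 67.4% to 70.8% of the summed level per kb in the *hsf-1* OE; *ubql-1(tm1574)* strain, 68.8% to 71.03% in *hsf-1* OE, 66.1% to 70.7% in *ubql-1(tm1574)* and 69.4% to 72.2% in wildtype worms, so a few members made up most of the pool in every genotype. *gst-4* came further down, at 762 normalized counts per kb, close to *gst-5* at 757. At the low end, *gst-8*, *gst-14*, *gst-17*, *gst-18*, *gst-23* and *gst-37* never had more than 16 reads in a library and passed the filter on low counts in no comparison. The other 38 passed in at least 1 comparison and 32 passed in all 5 tests.

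**Figure D1:**
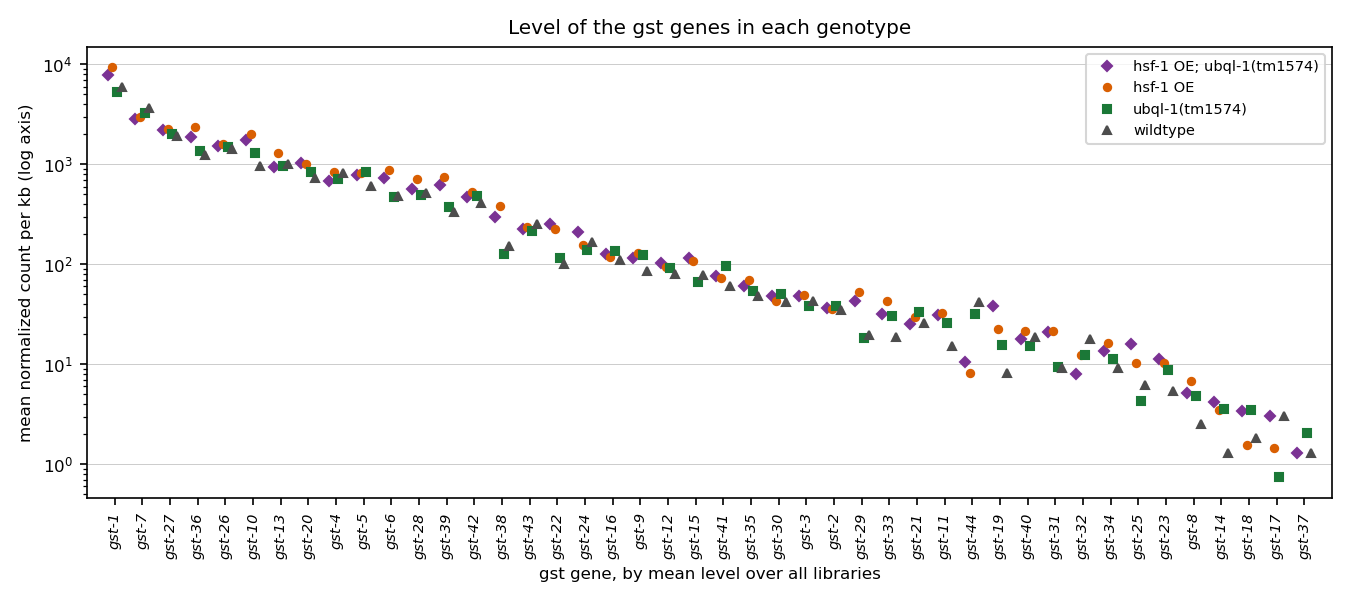
Mean normalized count per kilobase (log axis) of the 44 *gst* genes in each genotype, 1 symbol per genotype (mean of 4 libraries), ordered by the mean over all 16 libraries. *gst-1* stands at the top in all 4 genotypes, and *gst-37*, listed at 0 in all 4 *hsf-1* OE libraries, has no symbol there.

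As a sum over the 44 genes, *hsf-1* OE; *ubql-1(tm1574)* libraries held 18698 to 22301 normalized counts and *hsf-1* OE libraries 21701 to 25166. The sum was 15549 to 18625 in *ubql-1(tm1574)* and 15924 to 17697 in wildtype worms. On this scale each of the 8 libraries labelled with *hsf-1* OE thus lay above each of the other 8. In the mutant background the margin was narrow, at 18698 against 18625, and the sums were not recomputed under other scalings. The gap between *hsf-1* OE and wildtype remained once *gst-1* was left out (14300.0 to 16169 against 11192 to 12391). Without *gst-1*, however, the 2 genotypes with the deletion overlapped, at 12987 to 14513 in those labelled *hsf-1* OE as well, against 11571 to 14068 in those that were not, through 1 *ubql-1(tm1574)* library.

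The genes are clustered on the chromosomes of the WBcel235 assembly, with 25 of 44 on chromosome II, 9 on V, 4 on IV, 3 on X, 2 on I and 1 on III. Joining members less than 25 kb apart gave 4 groups with 25 members, while the other 19 stood alone. The largest groups hold 9 genes each, *gst-20* to *gst-18* on chromosome II from 13608185 to 13630887 and *gst-26* to *gst-35* on chromosome II from 15163808 to 15185385. Neighbours could be far apart in level. In the group of *gst-6*, *gst-7*, *gst-8* and *gst-9* (chromosome II, 4879885 to 4893574), *gst-7* averaged 3184 normalized counts per kb and *gst-8* 4.82. On chromosome IV (10139380 to 10143101), *gst-4* averaged 762 normalized counts per kb next to 44.6 for *gst-3* and 36.2 for *gst-2*. How reads that match several neighbours were counted is not given in the sources used here, so the division of counts among close copies within a group is uncertain.

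**Figure D2:**
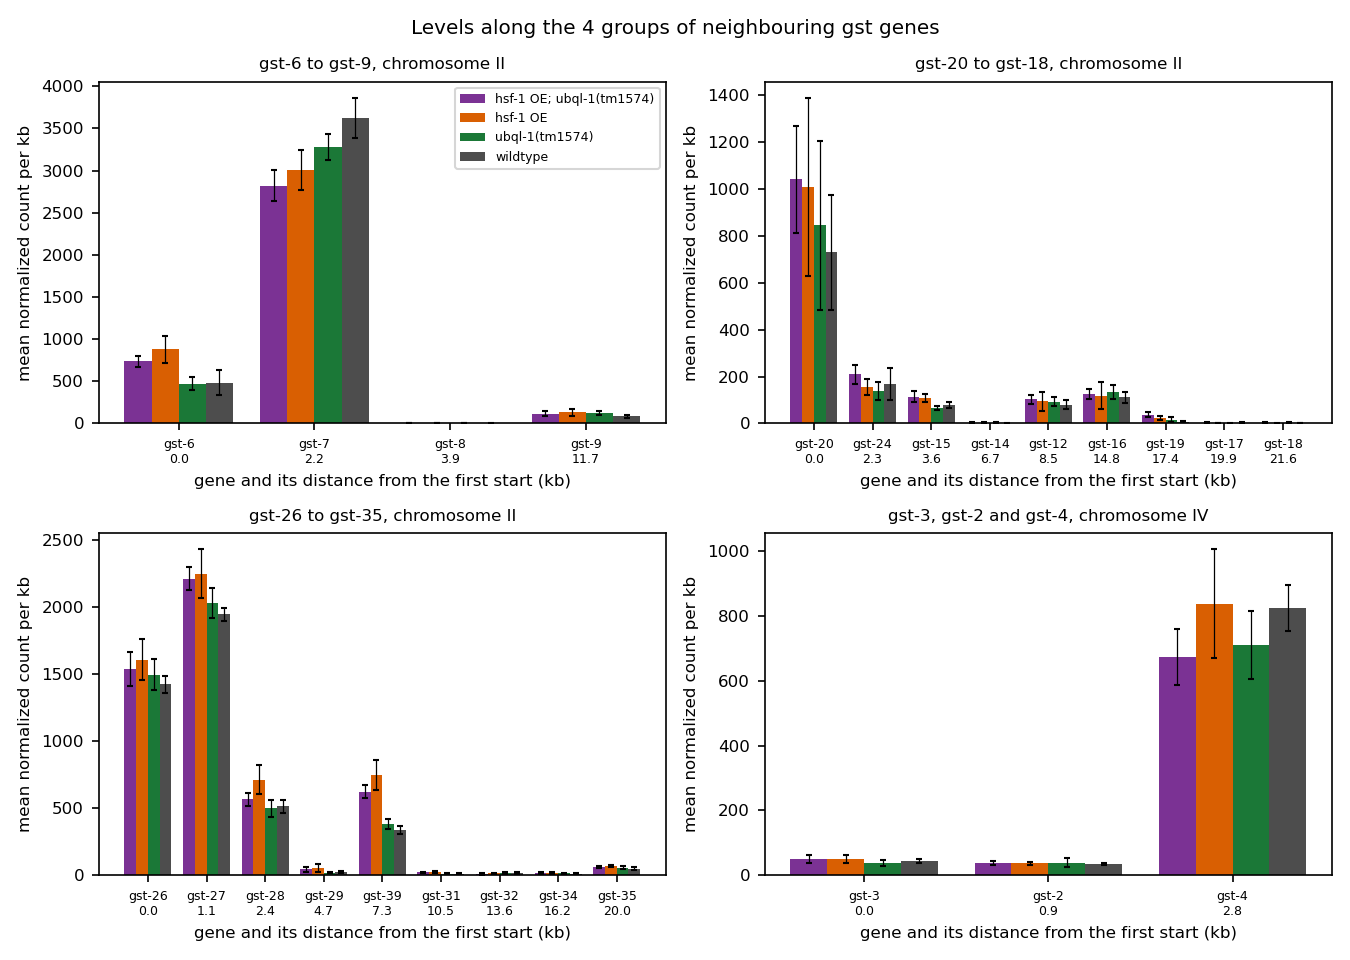
Mean normalized count per kilobase (bars, error bars SD, n = 4 libraries) of each *gst* gene in the 4 groups of neighbouring genes, 1 panel per group and 1 bar per genotype, in the order of the genes along the chromosome, with the distance from the first start in kb. Within each group 1 or a few genes hold most of the counts, such as *gst-7* beside *gst-8*, and neighbours differ in how they vary between genotypes, such as *gst-39* and *gst-26*.

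The first comparison asks what the *hsf-1* OE genotype changes. Of the 33 members tested in the libraries labelled *hsf-1* OE against wildtype ones, 10 were called (30.3%, where 26.2% of all genes tested were called). Of these, 9 were higher (27.3% of members, against 22.6% of all genes) and 1 was lower (3.03%, against 3.6%), so the share called was close to that of the transcriptome. By adjusted p alone 19 members passed (57.6%, against 67.3% of all genes), of which 18 were higher and 1 lower, whereas all genes divided into 38.6% higher and 28.7% lower. Over the members the median log2 fold change was 0.50, against 0.28 over all genes tested, and 25 of the 33 members lay above that all-gene median. Groups did not overlap for 14 members (42.4%, against 59.5% of all genes).

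Among the called members, *gst-36* (R07B1.4, chromosome X, 9861650 to 9862955), one of the 6 highest members per kb, varied little between replicates. It had 1699, 1849, 1782 and 1676 normalized counts in *hsf-1* OE libraries, against 966, 874, 915 and 966 in wildtype libraries. All 4 *hsf-1* OE libraries lay far above all 4 wildtype libraries (log2 fold change 1.05, SE 0.08, adjusted p = 3.16e-05). *gst-39* (Y53F4B.33, chromosome II, 15171151 to 15171912), which lies in the middle of a group of 9 neighbours, had 423, 516, 587 and 587 normalized counts in *hsf-1* OE, against 228, 221, 236 and 270.3 in wildtype worms. The groups were again fully apart, and *hsf-1* OE replicates 3 and 4 were the highest (log2 fold change 1.29, SE 0.16, adjusted p = 0.000212). For *gst-38* (F35E8.8, chromosome V, 15915168 to 15916079) normalized counts were 268, 321, 376 and 356 in *hsf-1* OE, against 97.4, 82.3, 162 and 175 in wildtype libraries. Here wildtype replicates 3 and 4 were the higher wildtype libraries, yet stayed under every *hsf-1* OE library (log2 fold change 1.5, SE 0.26, adjusted p = 0.001).

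*gst-10* (Y45G12C.2, chromosome V, 2561690 to 2564708), whose protein conjugates 4-hydroxynonenal, was also higher. Its normalized counts were 1446, 1763, 1946 and 1115 in *hsf-1* OE, against 828, 862, 764 and 584 in wildtype worms, with replicate 4 the lowest of each genotype and no overlap (log2 fold change 1.18, SE 0.19, adjusted p = 0.000605). *gst-5*, also named above for this aldehyde, had 715, 997, 782 and 746 normalized counts in *hsf-1* OE, against 405, 839, 628 and 548 in wildtype worms. It passed by adjusted p but not by fold change, and wildtype replicate 2 lay within the *hsf-1* OE range (log2 fold change 0.57, SE 0.21, adjusted p = 0.0362). Both rank among the well expressed members.

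Another 4 called members were of low or middle level and more variable. *gst-29* (Y53F4B.32, chromosome II, 15168538 to 15169860) was measured at 29.5, 20.7, 28.7 and 66.5 normalized counts in *hsf-1* OE, against 8.41, 10.7, 18.8 and 16.4 in wildtype libraries. *hsf-1* OE replicate 4 stood well above the other 3, and the lowest *hsf-1* OE library was close to the highest wildtype library (log2 fold change 1.56, SE 0.44, adjusted p = 0.0112). *gst-22* (F21H7.1, chromosome V, 16231034 to 16232282) reached 93.5, 106, 172 and 279 in *hsf-1* OE, against 90.1, 56.1, 48.3 and 97.7 in wildtype libraries, with *hsf-1* OE replicate 4 again the highest and *hsf-1* OE replicate 1 within the wildtype range (log2 fold change 1.31, SE 0.41, adjusted p = 0.0174). *gst-33* (C02A12.1, chromosome V, 3467453 to 3468501) stood at 23.6, 27.9, 43.1 and 32.3 normalized counts in *hsf-1* OE, against 9.62, 17.9, 13.4 and 14.6 in wildtype libraries, without overlap (log2 fold change 1.33, SE 0.30, adjusted p = 0.00387). The last of the 4, *gst-11* (R11G1.3, chromosome X, 3632555 to 3633747), had 13.8, 19.8, 26.7 and 18.6 normalized counts in *hsf-1* OE, against 7.21, 5.96, 12.1 and 11.9 in wildtype libraries. These groups barely cleared each other (log2 fold change 1.21, SE 0.34, adjusted p = 0.0113). The remaining higher member, *gst-6* (F11G11.3, chromosome II, 4879885 to 4881110), ranged from 566 to 859 normalized counts in *hsf-1* OE and from 261 to 518 in wildtype libraries (log2 fold change 1.01, SE 0.23, adjusted p = 0.00387).

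*gst-44* (F13A7.10, chromosome V, 16390934 to 16392406), the omega class member, was the only one called lower. It had 1.97, 14.4, 5.13 and 7.83 normalized counts in *hsf-1* OE, against 45.7, 36.98, 37.6 and 29.2 in wildtype libraries. Although its counts are low, every *hsf-1* OE library lay under every wildtype library (log2 fold change -2.16, SE 0.46, adjusted p = 0.00279). Other omega class genes carry the symbol *gsto-* and are described with the rest of the glutathione pathway.

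Members with a known class or role that did not pass both thresholds were examined in the same way. *gst-1*, the pi class gene and the most abundant member, had 7419, 8996, 6792 and 7401 normalized counts in *hsf-1* OE, against 4732, 5306, 4872 and 4634 in wildtype worms. The groups were fully apart, with a fold change under the threshold (log2 fold change 0.79, SE 0.10, adjusted p = 0.000243). *gst-4*, the SKN-1 reporter gene, had 493, 638, 735 and 802 normalized counts in *hsf-1* OE, against 684, 573, 669.7 and 701 in wildtype worms, and the wildtype libraries fell inside the *hsf-1* OE range (log2 fold change 0.17, SE 0.18, adjusted p = 0.396). For *gst-7* the counts were 2319, 2414, 2019 and 2138 in *hsf-1* OE, against 2474, 2882, 2747 and 2616 in wildtype worms. All *hsf-1* OE libraries were the lower ones on this scale, but the difference did not pass the test (log2 fold change -0.13, SE 0.08, adjusted p = 0.153). Scaling to 3 housekeeping genes turned its sign, to a log2 fold change of 0.23 (adjusted p = 0.0185), while DESeq2 gave -0.30 (adjusted p = 0.0105), RLE normalization -0.30 (adjusted p = 0.0203), no filter -0.28 (adjusted p = 0.0478) and one fit of all 16 libraries -0.27 (adjusted p = 0.00493).

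The zeta class genes gave unlike values. *gst-42* had 443, 577, 538 and 490.1 normalized counts in *hsf-1* OE, against 397, 421, 434 and 347 in wildtype worms, without overlap (log2 fold change 0.50, SE 0.14, adjusted p = 0.00943). *gst-43* had 191, 137, 163 and 147, against 188, 153, 161 and 189.9, with overlap (log2 fold change 0.01, SE 0.15, adjusted p = 0.94). Of the other highly expressed members, *gst-27* ranged from 1523 to 1849.9 normalized counts in *hsf-1* OE and from 1423 to 1495 in wildtype worms (log2 fold change 0.35, SE 0.08, adjusted p = 0.00411). *gst-26*, its direct neighbour, ranged from 1068 to 1325 in *hsf-1* OE and from 979 to 1089 in wildtype worms (log2 fold change 0.32, SE 0.09, adjusted p = 0.0123). Both passed by adjusted p, at fold changes near the all-gene median.

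Several of these calls rest on single libraries or on the fold change threshold. Without *hsf-1* OE replicate 4, *gst-22* (log2 fold change 0.78, adjusted p = 0.0559) and *gst-29* (0.97) were no longer called, and the count of called members was 7. Without *hsf-1* OE replicate 3 the same held for *gst-10* (0.95) and *gst-11* (0.92, adjusted p = 0.0557). *gst-36* stayed between 0.91 and 0.96 without any one of the *hsf-1* OE replicates, and *gst-6* between 0.76 and 0.96 without any one of them or without wildtype replicate 1 or 2, both with adjusted p under 0.05. *gst-38* and *gst-39* kept their call whichever library was left out. So did *gst-33* and *gst-44*, but these 2, like *gst-11* and *gst-29*, passed the filter on low counts only with the libraries of the genotype in which they are high, which favours a difference.

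**Figure D3:**
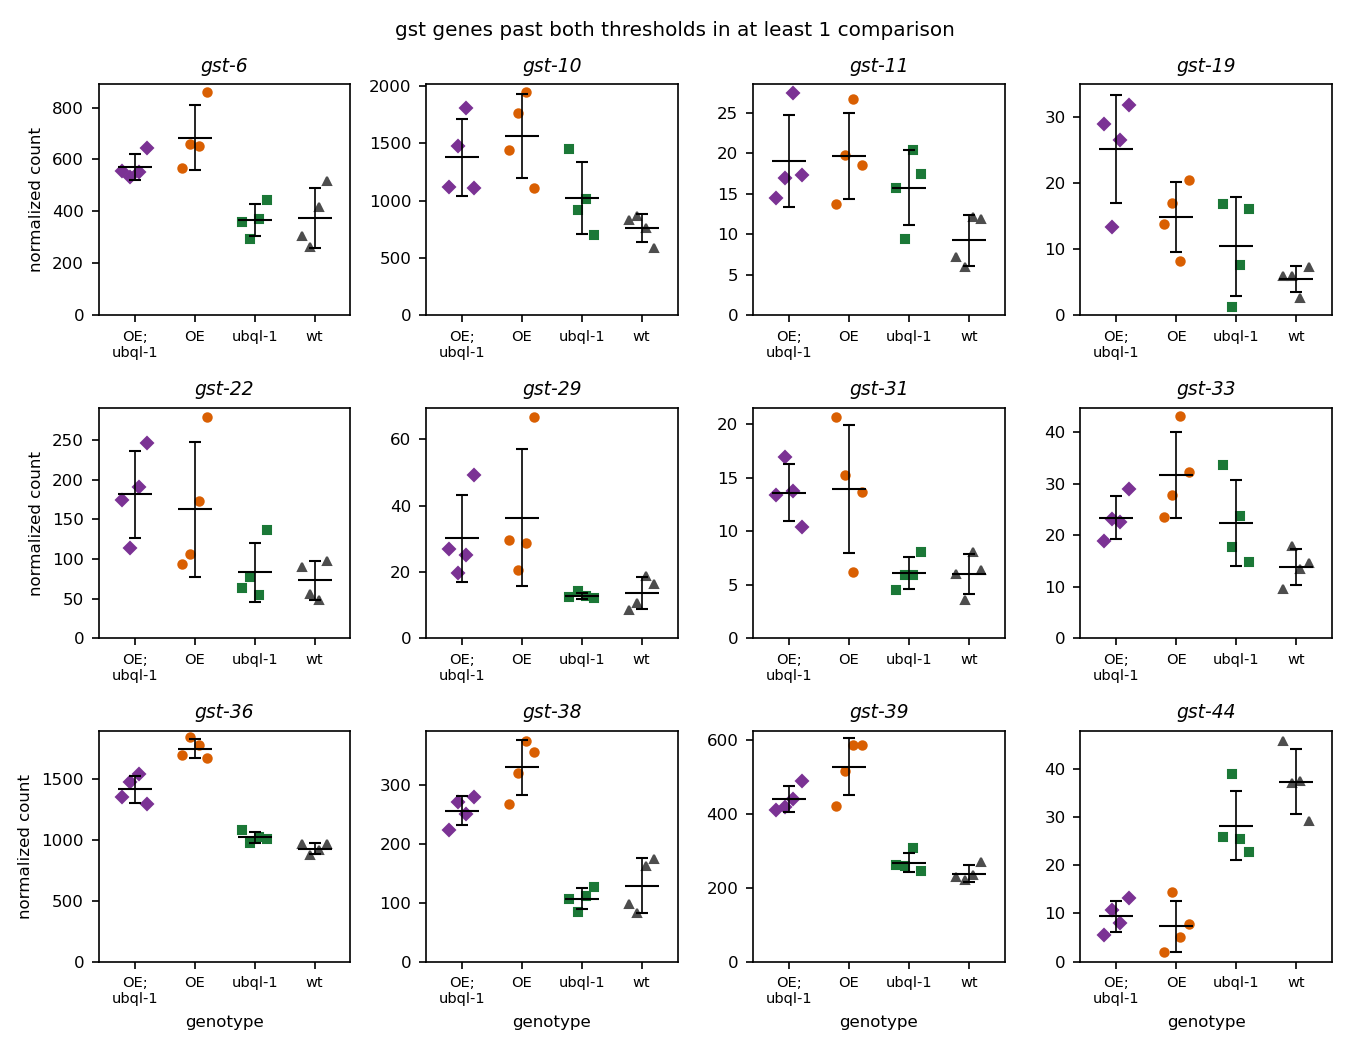
Normalized counts of the 12 *gst* genes called in at least 1 comparison, 1 panel per gene with its own axis from 0, in *hsf-1* OE; *ubql-1(tm1574)* (OE; ubql-1), *hsf-1* OE (OE), *ubql-1(tm1574)* (ubql-1) and wildtype (wt) worms. Each symbol is 1 library, from replicate 1 at the left to replicate 4, the long dash is the mean and the bar the SD (n = 4), and *gst-36*, *gst-38* and *gst-39* are higher in all 8 libraries labelled with *hsf-1* OE while *gst-44* is lower in all 8.

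The *hsf-1* OE genotype was next examined in the *ubql-1* mutant background, in 8 libraries that are not part of the first comparison. For *hsf-1* OE; *ubql-1(tm1574)* against *ubql-1(tm1574)*, 6 of 35 members tested were called (17.1%, against 14.6% of all genes). Of these 5 were higher (14.3%, against 12.8% of all genes) and 1 was lower (2.86%, against 1.87%). By adjusted p alone 13 members passed (37.1%, against 59.1% of all genes), of which 12 were higher and 1 lower, whereas all genes divided into 31.5% higher and 27.7% lower. Over the members the median log2 fold change was 0.21, against 0.11 over all genes, and 22 of 35 members lay above the all-gene median. No overlap between genotypes was seen for 11 members (31.4%, against 52.4% of all genes).

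*gst-38* had 224, 271, 251 and 280.3 normalized counts in the *hsf-1* OE; *ubql-1(tm1574)* strain, against 107, 83.6, 112 and 127 in *ubql-1(tm1574)* worms. The lowest *hsf-1* OE; *ubql-1(tm1574)* library was well above the highest *ubql-1(tm1574)* library (log2 fold change 1.32, SE 0.16, adjusted p = 0.000144). *gst-29* had 26.8, 19.6, 25.01 and 49.1 normalized counts in the *hsf-1* OE; *ubql-1(tm1574)* strain, against 12.3, 14.1, 12.7 and 12.1 in *ubql-1(tm1574)* worms. The mutant libraries were tightly grouped, and replicate 4 of *hsf-1* OE; *ubql-1(tm1574)* was the highest (log2 fold change 1.30, SE 0.33, adjusted p = 0.00622). *gst-22* had 174, 114, 190.4 and 246 normalized counts in the *hsf-1* OE; *ubql-1(tm1574)* strain, against 63.9, 77.7, 54.3 and 137 in *ubql-1(tm1574)* worms, where replicate 4 was the highest of both genotypes and that of *ubql-1(tm1574)* lay inside the range of the other genotype (log2 fold change 1.20, SE 0.30, adjusted p = 0.00595). *gst-44* had 5.58, 10.7, 8.07 and 13.1 normalized counts in the *hsf-1* OE; *ubql-1(tm1574)* strain, against 25.8, 38.9, 25.4 and 22.8 in *ubql-1(tm1574)* worms. It was lower here too, without overlap (log2 fold change -1.48, SE 0.31, adjusted p = 0.00276). These 4 genes were called in both comparisons of *hsf-1* OE, which share no library. Sharing no library does not make the comparisons independent. Same-numbered libraries of the strains labelled *hsf-1* OE, with and without the deletion, deviated together over 11670 genes (correlation 0.515 to 0.669). Both *gst-22* and *gst-29* were highest in replicate 4 of each of these strains. As a description, *gst-44* had passed the filter on low counts in both, and *gst-29* in the first, only with the libraries of the genotype in which it is high, while *gst-22* and *gst-38* passed in every genotype.

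Another pair was called here that the filter on low counts had kept out of the first comparison. *gst-19* (F37B1.8, chromosome II, 13625544 to 13627141) had 29.03, 13.4, 26.6 and 31.8 normalized counts in the *hsf-1* OE; *ubql-1(tm1574)* strain, against 16.8, 1.18, 7.63 and 16.1 in *ubql-1(tm1574)* worms. The groups overlapped and *ubql-1(tm1574)* replicate 2 stood lowest (log2 fold change 1.35, SE 0.50, adjusted p = 0.0356). *gst-31* (Y53F4B.35, chromosome II, 15174271 to 15174965) had 13.4, 16.95, 13.7 and 10.4 in the *hsf-1* OE; *ubql-1(tm1574)* strain, against 4.49, 5.89, 5.94 and 8.05 in *ubql-1(tm1574)* worms, without overlap (log2 fold change 1.21, SE 0.33, adjusted p = 0.00884). In *hsf-1* OE worms *gst-19* had 13.8, 17.1, 8.21 and 20.5 normalized counts, against 6.01, 5.96, 2.68 and 7.31 in wildtype worms, and in one edgeR fit of all 16 libraries it passed both thresholds there as well (log2 fold change 1.39, SE 0.54, adjusted p = 0.0298). So did *gst-31* in that fit (1.21, SE 0.37, adjusted p = 0.0086), with 20.7, 15.3, 6.16 and 13.7 normalized counts in *hsf-1* OE, against 6.01, 3.58, 8.05 and 6.39 in wildtype worms. Its *hsf-1* OE replicate 3 lay within the wildtype range. With no filter on low counts, *gst-19* passed both thresholds in that comparison (1.38, SE 0.45, adjusted p = 0.0227), and *gst-31* was not called. Where the filter was used, both genes passed it through the libraries in which they are high, which favours a difference, so these calls are given as a description.

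The call of *gst-19* ended without *hsf-1* OE; *ubql-1(tm1574)* replicate 1 (log2 fold change 1.29, adjusted p = 0.0643), replicate 3 (1.33, adjusted p = 0.0696) or replicate 4 (1.21, adjusted p = 0.0896), and without *ubql-1(tm1574)* replicate 2 (0.98, adjusted p = 0.063) or replicate 3 (1.23, adjusted p = 0.0846). *gst-29* fell below the fold change threshold without *hsf-1* OE; *ubql-1(tm1574)* replicate 4 (0.94, adjusted p = 0.0175), and the count of called members without that library was 4.

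The members called in the wildtype background alone gave the following values in the mutant background. *gst-36* had 1356, 1475, 1542 and 1294 normalized counts in the *hsf-1* OE; *ubql-1(tm1574)* strain, against 1083, 974, 1026 and 1011 in *ubql-1(tm1574)* worms, and *gst-39* had 412, 418, 441 and 490.0, against 261, 259, 307 and 247. Neither gene overlapped between genotypes and both passed by adjusted p, at log2 fold changes of 0.53 (SE 0.08, adjusted p = 0.000628) and 0.77 (SE 0.11, adjusted p = 0.000527). *gst-6*, at 555, 534, 553 and 644 in the *hsf-1* OE; *ubql-1(tm1574)* strain, against 359.9, 294, 372 and 444 in *ubql-1(tm1574)* worms, did so as well (log2 fold change 0.70, SE 0.13, adjusted p = 0.00152). *gst-10* had 1119, 1478, 1809.7 and 1111 normalized counts in the *hsf-1* OE; *ubql-1(tm1574)* strain, against 1449.8, 915, 1018 and 702 in *ubql-1(tm1574)* worms, overlapped and did not pass (log2 fold change 0.49, SE 0.21, adjusted p = 0.0644). In the fit blocked by replicate number its adjusted p was 0.0146 (log2 fold change 0.52). *gst-33* (log2 fold change 0.12, SE 0.29, adjusted p = 0.733) and *gst-11* (log2 fold change 0.33, SE 0.31, adjusted p = 0.379) did not pass. A gene past a threshold in one background and not in the other is not thereby shown to differ between them, which the interaction tests.

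Among the members with a known class or role, *gst-1* had 5888, 7788, 6647 and 5581 normalized counts in the *hsf-1* OE; *ubql-1(tm1574)* strain, against 4557, 4748, 4064 and 3978 in *ubql-1(tm1574)* worms, did not overlap and passed by adjusted p (log2 fold change 0.64, SE 0.11, adjusted p = 0.000963). *gst-4* had 471, 585, 485 and 605, against 640.2, 451, 613 and 554, with overlap (log2 fold change -0.01, SE 0.13, adjusted p = 0.934). *gst-7* had 2165, 2231, 1953 and 1992, against 2524, 2518, 2327 and 2324, without overlap (log2 fold change -0.16, SE 0.07, adjusted p = 0.0829). It passed by adjusted p in the fit blocked by replicate number (-0.16, adjusted p = 0.0385), with DESeq2 (-0.21, adjusted p = 0.0432), with RLE normalization (-0.21, adjusted p = 0.0479) and in one fit of all 16 libraries (-0.22, adjusted p = 0.0251), and again changed sign with scaling to the housekeeping genes (0.13, adjusted p = 0.0324). *gst-5*, *gst-42* and *gst-43* had log2 fold changes of -0.03, 0.03 and 0.13, with adjusted p of 0.89, 0.815 and 0.363.

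**Figure D4:**
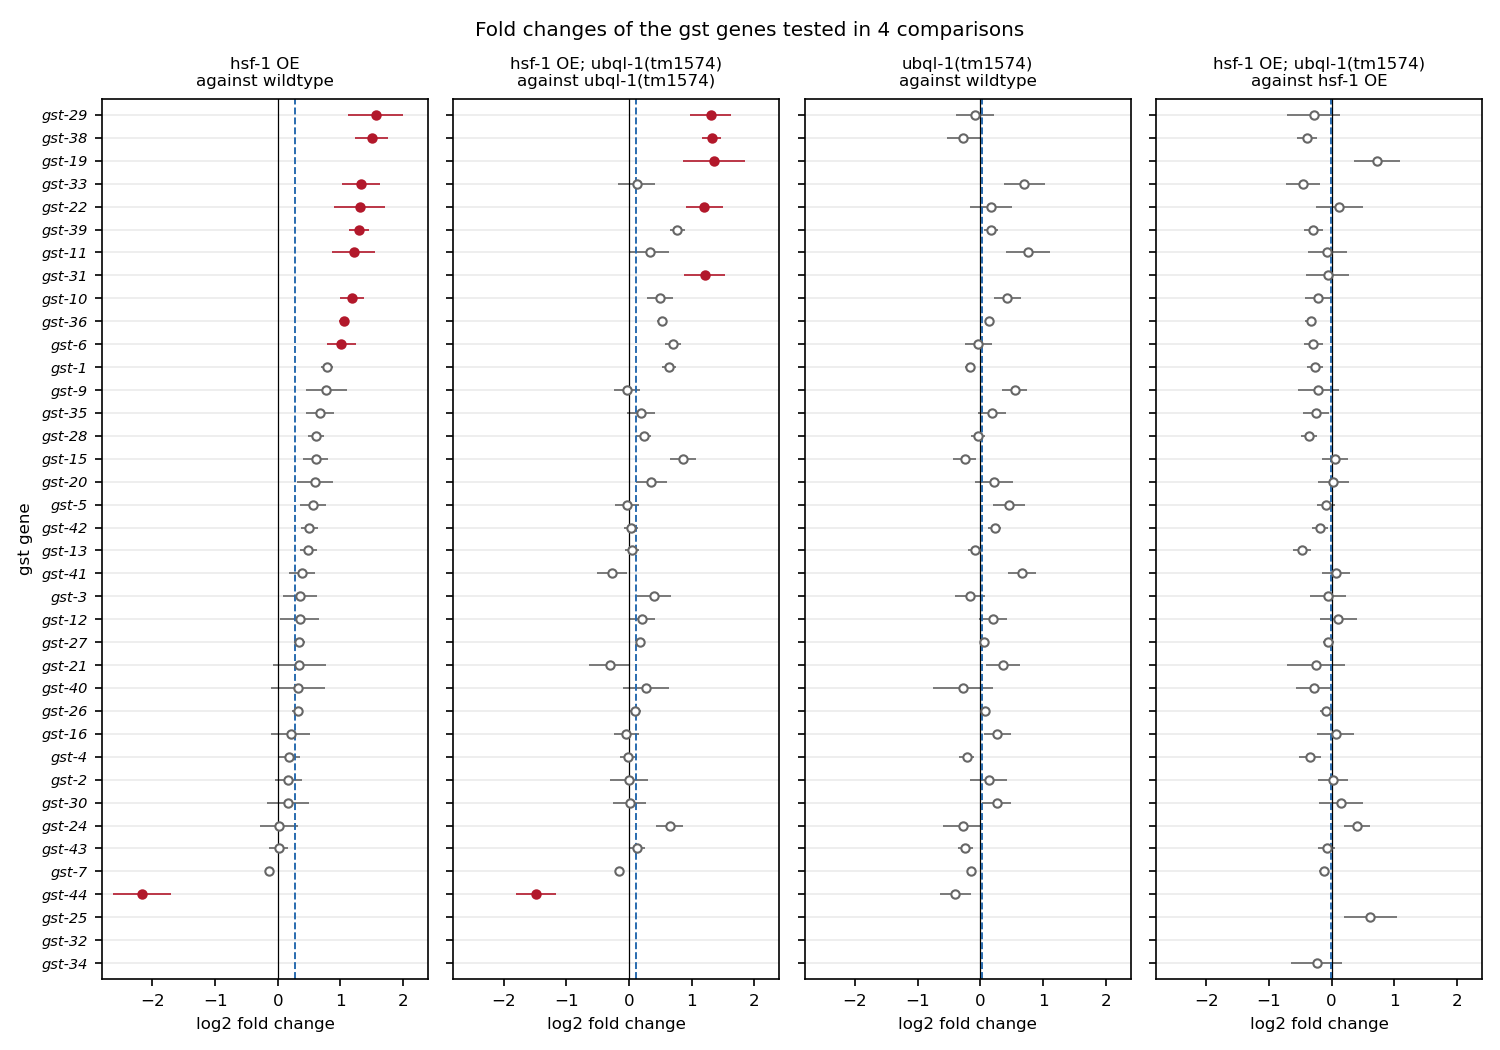
Log2 fold change of the *gst* genes tested (symbols, bars SE) in 4 comparisons, 1 panel each, in the order of the first panel, with called genes filled in red and the median of all genes tested as a dashed line. Called members stand at 1.01 to 1.56 and at -2.16 in the first panel and at 1.20 to 1.35 and at -1.48 in the second, while none is filled in the comparisons of *ubql-1(tm1574)*, and a missing symbol is a gene that did not pass the filter there.

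Over the 33 members tested in both comparisons of *hsf-1* OE, 27 had the same sign (81.8%, against 90.1% of the 14684 genes tested in both). The absolute log2 fold change was larger in the wildtype background for 28 of the 33 members, and for 11345 of the 14684 genes, so this holds for most genes. Pearson's r across these members was 0.814 and Spearman's rho 0.641, against 0.879 and 0.912 over 14684 genes. Without *gst-44*, which lies far from the others, the r over 32 members was 0.691. Genes of 1 library share its depth and the neighbours may share reads, so members are not independent and no p is given. The comparisons are not independent either, since same-numbered libraries deviated together.

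The effect of the *ubql-1* deletion was then examined in both backgrounds. Between *ubql-1(tm1574)* and wildtype, 0 of 33 members tested were called by edgeR (where 2.41% of all genes were), and 0 by DESeq2. None passed by adjusted p alone (8.31% of all genes did), and 5 had an unadjusted p under 0.05 (15.2%, against 33.1%). The median log2 fold change was 0.14 over the members and 0.03 over all genes. The lowest adjusted p was that of *gst-41*, singled out after its values were seen, with 44.9, 68.3, 81.4 and 76.5 normalized counts in *ubql-1(tm1574)*, against 51.7, 40.6, 36.2 and 42.01 in wildtype worms (log2 fold change 0.67, SE 0.22, adjusted p = 0.0794). *ubql-1(tm1574)* replicate 1 lay within the wildtype range. In the fit blocked by replicate number, 3 members passed by adjusted p alone: *gst-1* (log2 fold change -0.17, adjusted p = 0.0192), *gst-10* (0.40, adjusted p = 0.0303) and *gst-9* (0.56, adjusted p = 0.0342). *gst-9* overlaps the sperm gene *msp-33* on the other strand, as described below. *gst-10* ranged from 702 to 1449.8 normalized counts in *ubql-1(tm1574)* and from 584 to 862 in wildtype worms, and *gst-1* from 3978 to 4748 and from 4634 to 5306.

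*gst-36* (log2 fold change 0.14, adjusted p = 0.142) and *gst-42* (0.23, adjusted p = 0.156) had all *ubql-1(tm1574)* libraries above all wildtype libraries, and *gst-43* (-0.24, adjusted p = 0.195) had them all below, which is 3 of 33 members (9.09%, against 22.6% of all genes). None of these passed the test. *gst-44*, the member lowered in *hsf-1* OE, had 25.8, 38.9, 25.4 and 22.8 normalized counts in *ubql-1(tm1574)*, against 45.7, 36.98, 37.6 and 29.2 in wildtype worms, with overlap (log2 fold change -0.40, SE 0.24, adjusted p = 0.279). *gst-4* was not called either (log2 fold change -0.21, SE 0.12, adjusted p = 0.234).

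For *hsf-1* OE; *ubql-1(tm1574)* against *hsf-1* OE, 0 of 36 members tested were called by edgeR (0.611% of all genes were), and 0 by DESeq2. None passed by adjusted p alone (0.932% of all genes did), and 4 had an unadjusted p under 0.05 (11.1%, against 11.5%). The median log2 fold change was -0.10 over the members and -0.01 over all genes, and 11 of 36 members were above 0. *gst-36* was the member whose libraries did not overlap (2.78%, against 6.54% of all genes), at 1356, 1475, 1542 and 1294 normalized counts in the *hsf-1* OE; *ubql-1(tm1574)* strain, against 1699, 1849, 1782 and 1676 in *hsf-1* OE (log2 fold change -0.33, SE 0.09, adjusted p = 0.164). With a replicate block its adjusted p passed (-0.33, SE 0.05, adjusted p = 0.0175), and so did *gst-13* (-0.47, SE 0.08, adjusted p = 0.0196). *gst-38* had a log2 fold change of -0.39 (SE 0.16, adjusted p = 0.377) and *gst-4* of -0.35 (SE 0.18, adjusted p = 0.51). *gst-44* was too low in both genotypes to be tested.

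Whether the difference made by *hsf-1* OE depends on *ubql-1* was tested as an interaction over all 16 libraries, and 0 of 38 members were called by edgeR (0.55% of all genes were), and 0 by DESeq2. None passed by adjusted p alone (0.658% of all genes did). By unadjusted p under 0.05 there were 4, *gst-33*, *gst-36*, *gst-39* and *gst-42* (10.5%, against 19.4% of all genes), all with a smaller difference in the mutant background. *gst-36* had the lowest adjusted p, with an interaction of -0.44 on the log2 scale (SE 0.10, adjusted p = 0.0644). Its adjusted p passed with a replicate block (-0.44, adjusted p = 0.021), with DESeq2 (-0.38, adjusted p = 0.0251) and with scaling to the housekeeping genes (-0.60, adjusted p = 0.0377). For *gst-33* the interaction was -1.12 (SE 0.41, adjusted p = 0.162), at 18.98, 23.2, 22.6 and 29.1 normalized counts in the *hsf-1* OE; *ubql-1(tm1574)* strain, against 33.6, 17.7, 23.7 and 14.8 in *ubql-1(tm1574)* worms. The interactions of *gst-39* and *gst-42* were -0.43 (SE 0.17, adjusted p = 0.192) and -0.39 (SE 0.16, adjusted p = 0.207). Over all 38 members the median interaction was -0.12, against -0.04 over all genes.

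The genes that make, recycle or use glutathione beside the *gst* genes gave no call in any of the 5 tests. Between *hsf-1* OE and wildtype this was 0 of 4 tested of the other transferase families, *gsto-* of the omega and *gstk-* of the kappa class, 0 of 4 for glutathione synthesis and recycling, 0 of 7 glutathione peroxidases and 0 of 5 glutaredoxins. In that comparison 26.2% of all genes tested were called, and 67.3% passed by adjusted p alone. The share of all genes called was 14.6% for *hsf-1* OE in the mutant background. It was 2.41% and 0.611% in the comparisons of *ubql-1(tm1574)* and 0.55% in the interaction, where 0 calls in lists this short say little. *gcs-1*, the first and limiting enzyme of glutathione synthesis and a target of SKN-1, had 2461, 2254, 2017 and 2279 normalized counts in *hsf-1* OE, against 2582, 2781, 2624 and 2527 in wildtype worms (log2 fold change -0.09, SE 0.07, adjusted p = 0.289). *gsto-3* (log2 fold change 0.51, SE 0.13, adjusted p = 0.00673) and *gpx-5*, a glutathione peroxidase (log2 fold change 0.75, SE 0.12, adjusted p = 0.00051), passed by adjusted p only. So did *gstk-1* (0.48), *gpx-1* (0.55), *gpx-2* (0.24), *gpx-4* (0.93) and *glrx-10* (0.23) with higher counts, and *gss-1*, the second enzyme of glutathione synthesis (-0.39), *glrx-3* (-0.32) and *glrx-22* (-0.25) with lower counts, each given by its log2 fold change. The peroxidases had a median log2 fold change of 0.55, the other transferase families of 0.31, the synthesis genes of -0.06 and the glutaredoxins of -0.17, against 0.28 over all genes.

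Of 8 genes of SKN-1 and its regulators, 1 was called higher, in both comparisons of *hsf-1* OE (12.5%, against 22.6% and 12.8% of all genes called higher). This was *pmk-1*, the p38 kinase that activates SKN-1 by phosphorylation (log2 fold change 1.04, SE 0.12, adjusted p = 0.000167 against wildtype, and log2 fold change 1.02, SE 0.12, adjusted p = 0.00012 in the mutant background). Both values lie just past the fold change threshold, where the scaling can decide a call. *skn-1* itself had 3553, 3499, 3289 and 3809 normalized counts in *hsf-1* OE, against 4802, 5436, 5228 and 4603 in wildtype worms (log2 fold change -0.36, SE 0.09, adjusted p = 0.00438). *wdr-23*, whose protein directs SKN-1 to degradation, had 2231, 2085, 1919.7 and 2131 in *hsf-1* OE, against 2665, 3324, 3131 and 3199.8 in wildtype worms (log2 fold change -0.42, SE 0.08, adjusted p = 0.00151). Neither reached the fold change threshold, and mRNA counts do not show the activity of the proteins.

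The families of the neighbouring detoxification steps held called genes as well. Of the 49 cytochrome P450 genes (*cyp-*) tested between *hsf-1* OE and wildtype, 13 rose and 2 fell (30.6% called, against 26.2% of all genes), and the median log2 fold change was 0.44. Of the 58 UDP-glucuronosyltransferase genes (*ugt-*), 11 rose and 3 fell (24.1% called), with a median of 0.55, so both shares were near that of all genes. Examples are *cyp-37B1* (log2 fold change 2.73, adjusted p = 0.00774) and *ugt-18* (2.35, adjusted p = 0.0149) among those higher, and *cyp-13B2* (-2.15, adjusted p = 0.0002) and *ugt-14* (-1.58, adjusted p = 0.00349) among those lower. These are genes of low level. *cyp-37B1* had 23.4 to 63.6 normalized counts in *hsf-1* OE and 0 to 17.9 in wildtype worms. *ugt-18* had 12.6 to 42.1 and 0.913 to 17.4, with overlap. *cyp-13B2* had 9.24 to 19.7 and 52.96 to 67.1, and *ugt-14* 4.92 to 11.7 and 16.1 to 32.5. In the mutant background 8 of 52 *cyp-* genes (15.4%, 4 higher and 4 lower) and 9 of 61 *ugt-* genes (14.8%, 5 higher and 4 lower) were called, against 14.6% of all genes. No member of these families was called between *ubql-1(tm1574)* and wildtype, and 1 was called where both alleles were set against *hsf-1* OE alone and in the interaction. This was *cyp-13B1*, at a log2 fold change of -1.46 (SE 0.20, adjusted p = 0.0103) and an interaction of -2.79 (SE 0.56, adjusted p = 0.0304). The families were not tested against each other, and the calls of listed genes other than the *gst* genes were not recomputed under other scalings.

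Marker genes of tissues also differed between genotypes. Of 8 moulting genes, 7 were higher in *hsf-1* OE than in wildtype worms (median log2 fold change 3.6), as were 4 of 7 hypodermal genes (2.64), where 22.6% of all genes were called higher, while 8 of 11 oocyte genes were lower (-1.19), where 3.6% of all genes were. The hypodermal genes did not move together. Their sum overlapped, at 49670 to 61041 normalized counts in *hsf-1* OE and 48340 to 56651 in wildtype worms. It averaged 56189 and 53828, most of it from *col-19*, so the sum says little about the other genes of the list. Among those not called, *col-19* averaged 50516 in *hsf-1* OE against 50543 in wildtype worms, *elt-3* 565 against 492 and *lin-26* 1332 against 2360. Of the germline genes 1 of 10 was lower (-0.62), and of the sperm genes 6 of 29 were higher (20.7%, median 0.81), which is no more than the share of all genes. Without the *hsf-1* OE label, in *ubql-1(tm1574)* against wildtype worms, 5 of 8 moulting genes (1.58) and 3 of 7 hypodermal genes (1.07) were higher as well, where 2.41% of all genes were called. Of the intestine, where many *gst* genes act, 1 of 10 markers was higher (0.51), and 0 of 7 muscle and 0 of 8 neuron markers were called. The summed moulting markers had 1274, 2638, 3865 and 10467 normalized counts in *hsf-1* OE, against 999, 1059, 1087 and 928 in wildtype worms. *hsf-1* OE replicate 4, the library in which *gst-6*, *gst-22* and *gst-29* were highest, was thus also the highest for the moulting markers, and none of the 8 was at 0 in all libraries. The same did not hold for *gst-6* and *gst-22* in wildtype worms. There replicate 4 was the highest for *gst-6* (518) and *gst-22* (97.7) but the lowest for the moulting markers (928). *gst-29* and the moulting markers were both highest in wildtype replicate 3. For *hsf-1* OE in the mutant background, 4 of 7 hypodermal genes were higher (1.18) and 1 of 11 oocyte genes was lower (-0.68), where 12.8% and 1.87% of all genes were. Of the moulting genes 6 of 8 were higher there (1.42), with a sum of 1985, 3111, 4902 and 3849 in the *hsf-1* OE; *ubql-1(tm1574)* strain, against 1689.7, 1132, 2310.2 and 1608 in *ubql-1(tm1574)* worms. In both of these genotypes the sum was highest in replicate 3, while *gst-6* and *gst-22* were highest in replicate 4. *gst-29* was highest in replicate 4 of the former and replicate 2 of the latter. The part of these tissue differences in the values of the *gst* genes was not tested.

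Of the 44 members, 6 overlap a gene on the other strand, and whether the counting used the strand is not stated in the sources used here. *gst-25* lies whole within *spe-15*, a sperm gene with 2693 to 3609 normalized counts in *hsf-1* OE and 766 to 1833 in wildtype worms, next to 2.93 to 10.3 and 0 to 6.01 for *gst-25*. *gst-9*, with a span of 1995 bases, shares 460 bases with *msp-33*, a sperm gene that had 4098 to 5848 in *hsf-1* OE and 1799 to 3951 in wildtype worms. *gst-9* itself had 49.2 to 122 and 46.9 to 75.2. These overlaps are of gene spans, and whether the counted exons overlap was not examined. Whether reads of *msp-33* were counted for *gst-9* was not tested. Their log2 fold changes were close, at 0.78 for *gst-9* and 0.85 for *msp-33* between *hsf-1* OE and wildtype. They were 0.55 and 0.63 between *ubql-1(tm1574)* and wildtype, and -0.04 and -0.07 for *hsf-1* OE in the mutant background. With both alleles against *hsf-1* OE they were -0.21 and -0.24, and the interactions were -0.72 and -0.85. *gst-36* shares 86 bases with *scav-5*, whose log2 fold change between *hsf-1* OE and wildtype was 0.67 (adjusted p = 0.00332) at 283 to 332 normalized counts in *hsf-1* OE and 175 to 242 in wildtype worms, under those of *gst-36* in every library. The partners of *gst-22*, *gst-44* and *gst-5* share 10, 81 and 1 bases with them, and those of *gst-22* and *gst-44* had at most 6.16 normalized counts in a library.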

How the data were processed

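RNA was sequenced from whole worms of 4 genotypes with 4 libraries each, between 18202151 and 30524762 counts per library. As the authors describe, reads with adaptors or of low quality were removed, the rest were aligned with HISAT2 2.0.5 and counted per gene with featureCounts 1.5.0-p3; the submitters' processing notes name build WBcel235. The annotation release and strand setting are not given in the sources used here. The deposited values are raw counts per gene in 3 tables of 8 libraries, joined over 23758 genes; a gene missing from a table (4.57% of cells) was set to 0. The authors' 48 other per-library columns, FPKM among them, and their columns of group means, fold changes and p-values were not used. Levels per kb use the deposited gene length column.

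Symbols were matched through the WBcel235 locus tags for 23180 of 23758 genes. Members and gene lists were chosen with earlier results of these data known. The named genes were those called, the 6 highest per kb, members with a known class and members never tested; listed genes were named where called, up to 4 per list and direction, and a few features outside this rule were named after their values were seen.

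Genes passing filterByExpr were tested in edgeR 4.0.16 (TMM, glmQLFit, glmQLFTest; R 4.3.3), 2 genotypes per fit as in the study's comparisons, with the interaction fitted over 16 libraries, and p adjusted by the Benjamini-Hochberg method. The test was checked on simulated counts. Alternatives were DESeq2 1.42.0, RLE normalization, scaling to 3 housekeeping genes, no filter, the replicate number as a block, one fit of all libraries, each library left out and no fold change threshold. Same-numbered libraries deviated together over 11670 genes (lowest correlation 0.113, 0.235, 0.515 and 0.228 in the 4 comparisons). The labels give replicate numbers only, so a pairing of the samples is inferred from these correlations. The fits reported leave it out, as the study's methods name no block, and the block is given as an alternative. Counts carry no molecular identifiers. Reads matching several genes and unstranded overlaps limit closely related members.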

Additional observations from a re-analysis of the deposited data

Results flagged for a closer look

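In 2 of 156 groups of 4 libraries, over 38 members and the sum of the family in 4 genotypes, 1 library stood apart from the other 3 by a gap past Dixon's 95% critical value. *gst-21* had 33.55 normalized counts in wildtype replicate 3, where the other wildtype libraries had 18.03 to 20.28 (gap of 0.855 of the range). *gst-27* had 1495 normalized counts in wildtype replicate 2, where the others lay between 1423 and 1426 (gap of 0.960 of the range). Chance alone gives about 1 such group in 20, and neither gene was called in any comparison.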

How the results depend on the processing

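Between *hsf-1* OE and wildtype, the count of called members was 10 as reported and 7 with DESeq2, 8 with RLE normalization, 13 with scaling to 3 housekeeping genes, 9 without a filter, 10 with the replicate number as a block, 10 in one fit of all 16 libraries, 7 to 12 with 1 library left out and 19 with no fold change threshold. In the mutant background it was 6 as reported and 5, 6, 8, 7, 6 and 7 in the same order, 4 to 6 with 1 library left out and 13 with no fold change threshold. The other 3 tests gave 0 members under each of these alternatives. Over all genes the block raised the calls to 779 against 342 for *ubql-1(tm1574)* against wildtype, to 179 against 95 for *hsf-1* OE; *ubql-1(tm1574)* against *hsf-1* OE and to 853 against 86 for the interaction, and DESeq2 gave 558, 169 and 540. The block changed no member's call under both thresholds, and by adjusted p alone it added *gst-9* (0.72, adjusted p = 0.0269) and *gst-20* (0.58, adjusted p = 0.028) between *hsf-1* OE and wildtype and *gst-20* (0.42, adjusted p = 0.0495) in the mutant background, beside those given above. *gst-6* was 0.84 with DESeq2 and RLE, 0.85 without a filter and 0.86 in one fit, and *gst-36* 0.88, 0.88, 0.90 and 0.91, all under the fold change threshold. *gst-11* (1.05, adjusted p = 0.0583) and *gst-31* (1.18, adjusted p = 0.0562) were not called by DESeq2, and *gst-1* was called with housekeeping scaling (1.15). Signs near 0 changed for *gst-4* (-0.0082 with DESeq2, -0.0081 with RLE, -0.049 to 0.19 with 1 library left out), for *gst-7* (0.23 with housekeeping scaling) and for *gst-43* (-0.15 with DESeq2 and RLE, -0.13 without a filter, -0.12 in one fit, -0.20 to 0.055 with 1 library left out). Scaling moved the all-gene median between *hsf-1* OE and wildtype from 0.28 by -0.17 with DESeq2 and RLE and by 0.36 with housekeeping genes, and the median of the members was then 0.33, 0.33 and 0.87. Of 336 fold changes under alternatives, 290 kept direction and side of the thresholds. The cause of these changes was not tested.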
